A study of Mus musculus with 2 samples.

Results

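The p53 pathway genes followed here were 10 of the 32285 genes counted in a scRNA-Seq experiment on mouse lung: Trp53, Cdkn1a, Cdkn2a, Mdm2, Bax, Bbc3, Gdf15, Ccng1, Phlda3 and Btg2. They were chosen by symbol, for what they are known to do, but with earlier results of these data known. All 10 were found in both count matrices. The experiment compared 1 library of Cebpa FF mice, which carry floxed Cebpa alleles and served as the controls, with 1 library of Cebpa KO mice, in which a tamoxifen-inducible Cre under the Sftpc promoter was added to the same floxed alleles. The methods give 3 months as the usual age of the mice. Deletion was induced by tamoxifen at 75 mg/kg, injected daily for 5 days, with a further weekly round in experiments that ran beyond 3 months, and lungs were taken 26 weeks after the first dose. The Cre is driven in cells that express Sftpc, which in the alveolus are the type 2 (AT2) cells. The study's methods count 3 mice per genotype, but nothing in the cell barcodes tells the mice apart, so each genotype was 1 sample. There was therefore no replicate check and no test between genotypes, and all intervals given cover counting error only.

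p53, encoded by Trp53, is a transcription factor that is held low by the ubiquitin ligase Mdm2 and accumulates when cells sense DNA damage or other stress, mostly through protein stability and not through its own RNA. It switches on genes that stop the cell cycle, genes that start apoptosis, and Mdm2 itself, which closes a feedback loop. In the lung, raised Cdkn1a and other p53 targets are known from the transitional state that AT2 cells pass through on the way to type 1 (AT1) cells after injury, and Cdkn1a and Cdkn2a are commonly used markers of senescence. Several of the 10 genes also answer to other inputs. Btg2 is an early response gene in many cells, and Gdf15 is driven by the integrated stress response as well.

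On GRCm38, Trp53 lies on the plus strand at chr11:69580359-69591873 and Mdm2 on the minus strand at chr10:117688875-117710758. Of the arrest genes, Cdkn1a lies at chr17:29090976-29100727 (plus strand), Cdkn2a at chr4:89274471-89294653 (minus strand), Btg2 at chr1:134075170-134079120 (minus strand) and Ccng1 at chr11:40748552-40755311 (minus strand). The apoptosis genes Bax and Bbc3 lie on chromosome 7, at chr7:45461697-45466898 on the minus strand and chr7:16308393-16318205 on the plus strand. Phlda3 lies at chr1:135766119-135769136 (plus strand) and Gdf15 at chr8:70629393-70632456 (minus strand). Bax overlaps the annotated gene Gm45808 on the same strand, so its counts are less certain. Cdkn1a overlaps AC167363.2, which lies on the other strand. Cdkn2a codes for 2 proteins, p16Ink4a and p19Arf, from different first exons with the same 3′ end, and 3′ counts cannot tell them apart.

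Promoter sequence was matched for 10 of 10 members in the RefSeq table for GRCm38.p6, which lists 15 starts for them. The 250 bases before each start were searched for an exact p53 half-site, a motif of 10 bases that reads the same on both strands. It was found before a start of 5 members, Trp53, Cdkn1a, Mdm2, Bax and Ccng1, and in 7.13% of the 32851 promoters in the table. The windows of 4 of these genes are shown, with half-sites in capitals, because these genes had both a half-site and a level past 2-fold higher in a group of AT2 cells. They lie at chr17:29090729-29090978 (plus strand) for Cdkn1a, chr11:40755287-40755536 (minus strand) for Ccng1, chr10:117710759-117711008 (minus strand) for Mdm2 and chr7:45466899-45467148 (minus strand) for Bax.
Cdkn1a: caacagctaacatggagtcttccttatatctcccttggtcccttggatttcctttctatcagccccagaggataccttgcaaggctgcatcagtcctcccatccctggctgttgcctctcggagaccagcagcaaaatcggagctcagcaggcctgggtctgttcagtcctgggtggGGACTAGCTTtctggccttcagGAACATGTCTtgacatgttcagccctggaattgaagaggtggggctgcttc
Ccng1: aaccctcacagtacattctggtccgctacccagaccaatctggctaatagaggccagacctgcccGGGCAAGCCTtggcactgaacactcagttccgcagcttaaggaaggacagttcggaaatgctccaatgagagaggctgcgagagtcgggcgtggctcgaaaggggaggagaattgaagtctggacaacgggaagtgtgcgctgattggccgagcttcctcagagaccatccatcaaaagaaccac
Mdm2: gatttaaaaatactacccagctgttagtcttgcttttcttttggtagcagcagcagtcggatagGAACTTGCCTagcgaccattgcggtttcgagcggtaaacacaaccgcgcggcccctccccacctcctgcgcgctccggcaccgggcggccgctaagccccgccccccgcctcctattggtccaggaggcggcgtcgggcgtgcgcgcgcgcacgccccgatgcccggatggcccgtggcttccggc
Bax: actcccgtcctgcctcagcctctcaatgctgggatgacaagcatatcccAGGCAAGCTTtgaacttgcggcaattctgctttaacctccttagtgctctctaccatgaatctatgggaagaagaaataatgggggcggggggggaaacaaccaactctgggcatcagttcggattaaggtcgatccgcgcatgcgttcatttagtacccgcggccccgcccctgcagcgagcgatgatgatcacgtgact
The Cdkn1a window shown held 2 exact half-sites, which began 73 and 51 bases before its start. The later one was followed directly by a second half-site if 1 mismatch was allowed, and such a pair, with at most 13 bases between its parts, was found in 1.14% of all promoters and before 1 member. The window of another listed Cdkn1a start, at chr17:29093519-29093768, held 0 half-sites and 0 pairs. The half-site began 185 bases before the start in Ccng1, 186 bases in Mdm2 and 201 bases in Bax. These matches describe the letters and say nothing about binding.

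In all, 11721 barcodes and 69200420 UMIs, each of which stands for 1 tagged RNA molecule, came from Cebpa FF, and 13373 barcodes and 64697396 UMIs from Cebpa KO. After a filter on genes and mitochondrial counts, 11487 and 13238 cells were kept, with medians of 4835 and 2607 UMIs. Cells were put into 27 types by the raw counts of marker genes, none of them a member, and 13.01% of Cebpa FF and 33.3% of Cebpa KO cells met no gate or the gates of unrelated types. The AT2 gate held 447 Cebpa FF cells with a median of 21167 UMIs and 185 Cebpa KO cells with a median of 2035 UMIs. The AT1 gate held 96 and 28 cells. The libraries shared 44 barcode sequences, 2 of them in the Cebpa FF and 1 in the Cebpa KO AT2 cells. The targeted gene, Cebpa, was at 155 counts per 1000000 UMIs (CPM) in AT2 cells of Cebpa FF and at 128 CPM in those of Cebpa KO, a log2 ratio of -0.28 (95% interval -0.51 to -0.05). As a whole, the AT2-gated cells of the library labelled Cebpa KO thus held Cebpa RNA near the control level, and whether the 3′ counts come from the floxed stretch is not given in the sources used here.

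In AT2 cells, Cdkn1a and Ccng1 were higher in the Cebpa KO library, and no member was lower by 2-fold. Among genes with at least 20 UMIs over both libraries, 2 of the 9 members tested were past 2-fold higher, against 4.87% of all 11488 genes, and 0 were past 2-fold lower, against 1.37%. The median log2 ratio was 0.66 over the 9 members and 0.12 over all genes. All 9 ratios were above 0, which held for 63.2% of all genes.

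Trp53 itself was counted at 16.2 CPM in Cebpa FF and 25.6 CPM in Cebpa KO AT2 cells (log2 ratio 0.66, 0.10 to 1.20). Mdm2, which marks p53 protein for degradation, was at 26.9 and 44.8 CPM (0.74, 0.31 to 1.14). Both differences were under 2-fold, with intervals above 0.

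Among the arrest genes, Cdkn1a, which encodes the cyclin-dependent kinase inhibitor p21, stood at 77.8 CPM in Cebpa FF and 159 CPM in Cebpa KO, a log2 ratio of 1.03 (0.81 to 1.25). Ccng1, whose product cyclin G1 is a long-known p53 target that acts with Mdm2, was at 25.3 and 59.7 CPM (1.24, 0.86 to 1.60). These were the 2 members past 2-fold. Btg2, an antiproliferative gene, was at 214 and 247 CPM, with a log2 ratio of 0.20 (0.03 to 0.37). Cdkn2a was represented by 1 UMI in each library and was not detectable at this depth in either beyond that molecule.

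Of the apoptosis genes, Bax, which permeabilizes mitochondria, was at 43.7 and 62.6 CPM (log2 ratio 0.52, 0.17 to 0.85). Bbc3, which encodes the BH3-only protein PUMA, was at 23.9 and 25.6 CPM (0.10, -0.45 to 0.61). Phlda3, a repressor of Akt signaling, was at 12.6 and 22.8 CPM (0.86, 0.24 to 1.43), but its ratio was 0.24 (-0.59 to 0.98) in cells with at least 10000 UMIs. The secreted stress cytokine Gdf15 was at 9.72 and 13.5 CPM (0.47, -0.32 to 1.20). The intervals of Bbc3 and Gdf15 included 0.

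Because depth differed between the libraries, members were also read at matched depth. Among cells with at least 10000 UMIs, 401 Cebpa FF and 49 Cebpa KO cells remained, and the log2 ratio was 0.89 (0.64 to 1.14) for Cdkn1a, 1.28 (0.87 to 1.67) for Ccng1 and 0.81 (0.36 to 1.25) for Mdm2. Of the 9 members, only Ccng1 was past 2-fold there, against 3.19% of all genes. When each cell was thinned to 1000 UMIs and the result averaged over all draws, a Cdkn1a UMI was found in 6.44% (Wilson interval 4.57 to 9.20) of 445 Cebpa FF cells and in 15.5% (10.8 to 22.05) of 160 Cebpa KO cells. In B cells of Cebpa KO, a type with little Cdkn1a, the share was 3.15%, with a median of 5616 UMIs before thinning. Without thinning, the shares were 47.2% in Cebpa FF and 39.5% in Cebpa KO, the opposite order, at medians of 21167 and 2035 UMIs. Genes typical of other cell types also differed between the libraries. In the AT2 gate the endothelial gene Cldn5 was at 96.8 CPM in Cebpa FF and 195 CPM in Cebpa KO, and the neutrophil gene S100a8 at 0.546 and 152 CPM. In cells with at least 10000 UMIs, where the ratio of Cdkn1a was 0.89, Cldn5 was at 96.5 and 85.1 CPM and S100a8 at 0.337 and 33.7 CPM. The paper reports S100a8 and S100a9 as raised in the AT2 cells of Cebpa KO mice. Whether the S100a8 UMIs counted here came from the AT2 cells or from RNA of other cells was not tested.

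The AT2 cells of the Cebpa KO library fell into groups that were set apart by Sftpc, and several p53 targets were high in the smaller one. Sftpc, the gene of surfactant protein C, took at least 3.12% of the UMIs in 162 cells and at most 0.125% in the other 23, with 0 cells between. The split, at 1% of UMIs, was chosen after the data were seen, and Sftpc, although on the AT2 marker list, was left out of the gate and is no member. The 23 Sftpc-poor cells were 12.4% (Clopper-Pearson interval 8.05 to 18.1) of the gated cells, against 1 of 447 in Cebpa FF, a cell of 794 UMIs with no UMI of any member. They held 0 Cebpa UMIs among 171995 UMIs, whereas 70 of the 162 Sftpc-rich cells held 180, so that Cebpa was at least 8.36-fold lower at a floor of 3 counts over the group. The Sftpc-poor cells still held the surfactant genes Sftpb, at 13175 CPM against 9510 in Sftpc-rich cells, and Sftpa1, at 37792 against 23560 CPM, and the lung lineage factor Nkx2-1, at 442 against 371 CPM. Lyz2 and Hc, which are found in AT2 cells of mice, were at 163 and 40.7 CPM, against 17604 and 1382 CPM. Of the AT2 gate markers besides Hc, Napsa was higher in Sftpc-poor cells, at 4797 against 2294 CPM. Abca3 was lower, at 297 against 711 CPM, as were Lamp3, at 785 against 1487 CPM, and Slc34a2, at 3855 against 5312 CPM. Etv5 was at 424 against 485 CPM.

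Cdkn1a stood at 581 CPM (95% interval 473 to 707) in the Sftpc-poor cells, at 100 CPM (83.6 to 120) in the Sftpc-rich cells of the same library and at 77.8 CPM in the Sftpc-rich cells of Cebpa FF. The first level was 5.79-fold (4.40 to 7.59) the second. For Ccng1 the levels were 267, 30.8 and 25.4 CPM, and the fold within the Cebpa KO library was 8.68 (5.53 to 13.7). Both genes were thus highest in the group that held no Cebpa UMI.

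Bax was at 180 CPM in Sftpc-poor and 46.2 CPM in Sftpc-rich Cebpa KO cells (3.90-fold, 2.43 to 6.15), with 43.7 CPM in Cebpa FF. Mdm2 was at 98.8 and 37.3 CPM (2.65-fold, 1.42 to 4.71), and Btg2 at 454 and 218 CPM (2.08-fold, 1.60 to 2.69). Phlda3 was at 52.3 and 18.6 CPM (2.81-fold, 1.14 to 6.30), from 9 and 23 UMIs, but its log2 ratio was 0.07 when cells were thinned to 1000 UMIs and 2.76 in cells with at least 10000, so its value depends on depth. The raised members thus included arrest genes, the feedback gene Mdm2 and the apoptosis gene Bax. Gdf15 had 6 UMIs in the Sftpc-poor cells, 5 of them in 1 cell, and 13 in the others. Trp53 RNA was at 23.3 and 25.9 CPM (0.90-fold, 0.23 to 2.53), from 4 and 32 UMIs, with an interval that includes the 2.08-fold of Btg2. Bbc3 had 3 and 33 UMIs (0.65-fold, 0.13 to 2.08), and Cdkn2a had 0 UMIs in Sftpc-poor cells, where 3 counts would be 17.4 CPM.

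By the same rule of size, 6 of the 8 members tested were past 2-fold higher in Sftpc-poor than in Sftpc-rich cells, against 18.2% of all 6926 genes, and 0 were past 2-fold lower, against 3.81%. Counts under 3 were raised to 3, or 17.4 CPM in Sftpc-poor cells. Trp53, Bbc3, Ccng1 and Phlda3, at 25.9, 26.7, 30.8 and 18.6 CPM in Sftpc-rich cells, could therefore not have been called lower. The same floor entered the shares and the median over all genes. The members' median log2 ratio was 1.45 and that of all genes 0.38. Averaged over cells thinned to 1000 UMIs, the log2 ratio was 2.50 for Cdkn1a, 3.31 for Ccng1, 1.18 for Bax, 0.999 for Mdm2 and 0.59 for Btg2. With all summed ratios centred on the median of all genes, Cdkn1a was at 2.15, Ccng1 at 2.74 and Btg2, no longer past 2-fold, at 0.67. Sftpc-rich cells of Cebpa KO over those of Cebpa FF gave 0 of 9 members past 2-fold higher, against 4.49% of 11446 genes, and 0 past 2-fold lower, against 1.81%. There the log2 ratio was 0.37 (0.08 to 0.65) for Cdkn1a, or 0.80 averaged over cells thinned to 1000 UMIs (129 and 74.3 CPM), 0.28 (-0.25 to 0.78) for Ccng1, 0.08 (-0.35 to 0.48) for Bax and 0.02 (-0.17 to 0.21) for Btg2. The highest was that of Trp53, at 0.68 (0.08 to 1.24). Phlda3 was at 0.57 (-0.14 to 1.22) from 23 and 115 UMIs, but at -0.50 in cells with at least 10000 UMIs and at 2.22 averaged over thinned cells, so no direction is given for it.

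**Figure D1:**
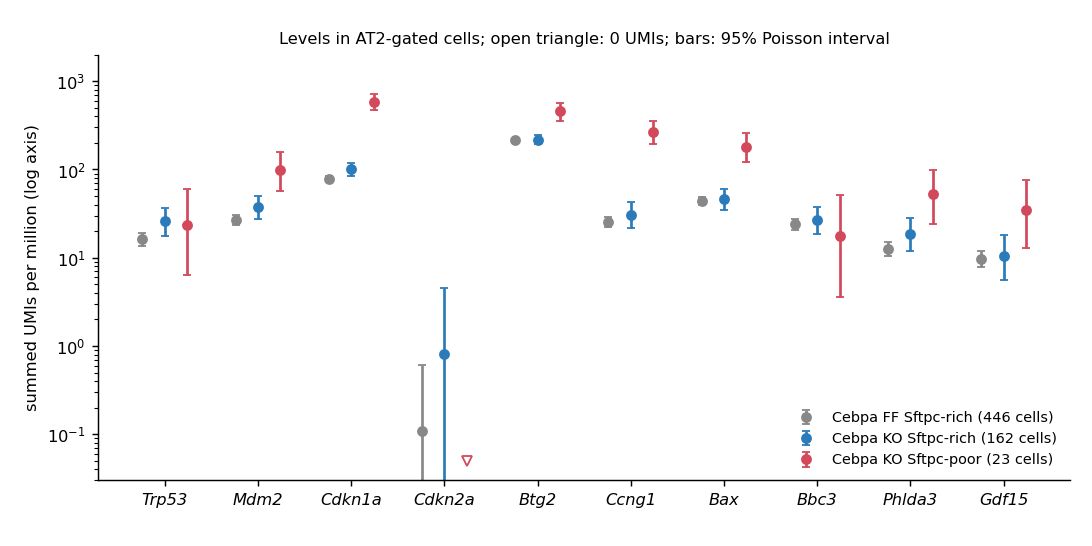
Summed level of each member, in CPM on a log axis, in the AT2-gated cells of Cebpa FF (446 Sftpc-rich cells, gray) and Cebpa KO (162 Sftpc-rich cells, blue, and 23 Sftpc-poor cells, red). Points are sums over cells, bars are 95% Poisson intervals, and the open triangle marks 0 UMIs. For Mdm2, Cdkn1a, Btg2, Ccng1, Bax and Phlda3 the red point lies at more than 2-fold the blue one.

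**Figure D2:**
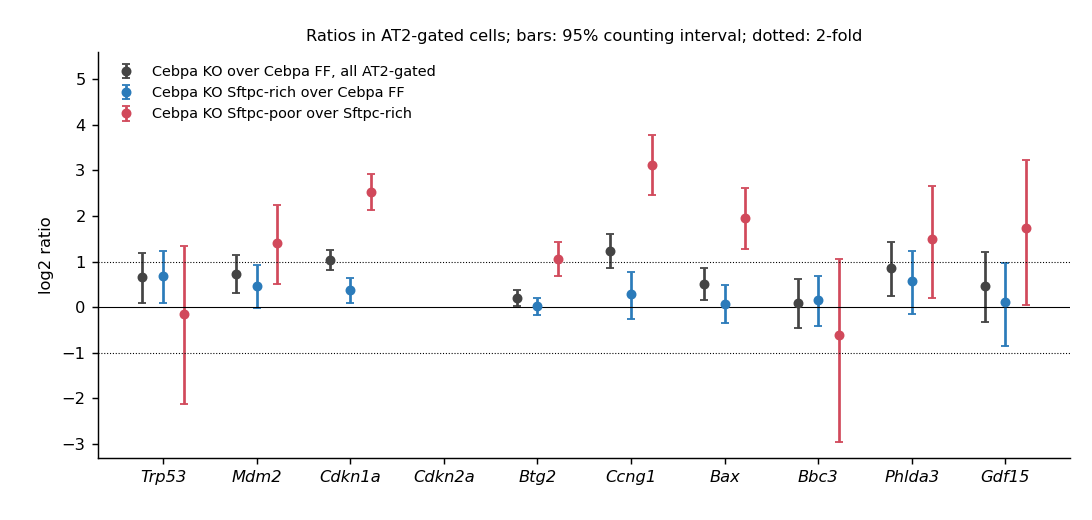
Log2 ratio of each member in AT2-gated cells, for all cells of Cebpa KO over Cebpa FF (dark gray), Sftpc-rich cells of Cebpa KO over Cebpa FF (blue) and Sftpc-poor over Sftpc-rich cells of Cebpa KO (red). Bars are 95% counting intervals and dotted lines mark 2-fold. Without the Sftpc-poor cells the ratio of Cdkn1a went from 1.03 to 0.37 and that of Ccng1 from 1.24 to 0.28. Cdkn2a, with 2 UMIs in all, is not drawn.

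The raised targets were spread over several of the Sftpc-poor cells. Of the 23 cells, 17 held a Cdkn1a UMI and 11 a Ccng1 UMI, although their median was 2278 UMIs. The cell with the most Cdkn1a UMIs held 35 of the 100, and without it the level was 436 CPM. Without its own top cell, which held 13 of 46 UMIs, Ccng1 was at 209 CPM. The cell with the most Cdkn1a also held 6 Mdm2, 5 Bax, 7 Ccng1 and 4 Phlda3 UMIs among its 22780 UMIs, and the deepest cell, of 25888 UMIs, held 3 Cdkn1a, 5 Ccng1, 5 Gdf15 and 16 Btg2 UMIs. One deep cell departed from the rest, with 1 Cdkn1a UMI, 0 Ccng1 UMIs and 20 Btg2 UMIs among 22685.

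Of the Sftpc-poor cells, 7 had at least 10000 UMIs and could be set beside 42 Sftpc-rich cells of Cebpa KO and 401 of Cebpa FF at this depth. Per cell, Cdkn1a ranged from 44.1 to 1536 CPM with a median of 364 in the first, from 0 to 452 with a median of 49.9 in the second, and from 0 to 2043 with a median of 32.0 in the third. The ranges overlap, and 4 of the 7, 1 of the 42 and 21 of the 401 cells reached 300 CPM. Ccng1 had a median of 307 CPM in the 7 cells and of 0 in both other groups, and 4, 0 and 0 cells reached 300 CPM. Bax had medians of 219, 40.4 and 40.2 CPM. Single control cells thus reached the Cdkn1a levels of the 7 cells, but no Sftpc-rich cell of either library reached their median of Ccng1. Their summed levels were 565 CPM for Cdkn1a and 298 CPM for Ccng1, against 91.3 and 31.1 CPM in the deep Sftpc-rich Cebpa KO cells.

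**Figure D3:**
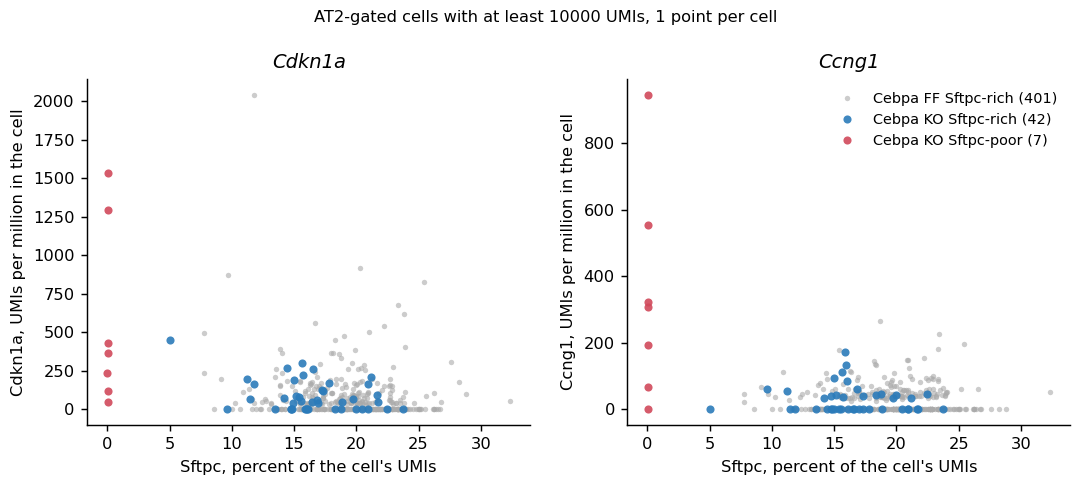
Each point is 1 AT2-gated cell with at least 10000 UMIs, placed by the percent of its UMIs that are Sftpc (x axis) and by its Cdkn1a (left) or Ccng1 level (right) in CPM. Colors give 401 Cebpa FF cells (gray), 42 Sftpc-rich Cebpa KO cells (blue) and 7 Sftpc-poor Cebpa KO cells (red). The 7 Sftpc-poor cells stand at the left edge, and 4 of them lie above 300 CPM in each plot, which no Sftpc-rich cell does for Ccng1.

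At 1000 UMIs per cell, averaged over all draws, a Cdkn1a UMI was found in 41.0% (Wilson interval 24.5 to 63.4) of 21 Sftpc-poor cells, 11.7% (7.21 to 17.9) of 139 Sftpc-rich Cebpa KO cells and 6.44% of 445 Cebpa FF cells. For Ccng1 the shares were 20.9%, 2.65% and 2.37%, and for Bax 13.6%, 6.41% and 4.26%. For these 3 genes the order of the groups was that of the summed levels. For Phlda3 the shares were 5.51%, 5.06% and 1.09%, so that both groups of Cebpa KO lay above Cebpa FF and near each other. Genes typical of other cell types went both ways between these groups. Cldn5 was at 98.8 CPM in Sftpc-poor and 208 CPM in Sftpc-rich Cebpa KO cells, S100a8 at 98.8 and 159 CPM, and the leukocyte gene Ptprc at 11.6 and 37.3 CPM. The club cell gene Scgb1a1 was at 890 and 745 CPM, but 84 of its 153 UMIs in Sftpc-poor and 447 of its 919 UMIs in Sftpc-rich cells lay in 1 cell each. Among cells with at least 10000 UMIs and without the top cell of each group, Scgb1a1 was at 257 and 331 CPM, the other order. The AT1 gene Ager was higher in Sftpc-poor cells, at 1477 and 587 CPM, and whether these cells made it themselves was not tested. In cells with at least 10000 UMIs, S100a8 was at 45.8 and 32.1 CPM and Cldn5 at 38.2 and 91.3 CPM. Their part in the result was not tested.

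Other p53 targets, from a list of 30 without the members, were read in the same cells. In Sftpc-poor over Sftpc-rich cells, 10 of the 19 tested were past 2-fold higher and 1, Perp, was past 2-fold lower with 3 and 45 UMIs, and the median log2 ratio was 1.17, beside 18.2% higher, 3.81% lower and a median of 0.38 over all genes. The 4 with the most UMIs were Dcxr, at 378 and 160 CPM, Plk2, at 238 and 52.7 CPM, Trp53inp1, at 134 and 38.9 CPM, and Ei24, at 105 and 36.5 CPM. Trp53inp1 and Ei24 promote cell death downstream of p53, and Plk2 is a stress-induced kinase. Among the 10 called higher, Aen had 8 and 15 UMIs, Ppm1d 8 and 15, Abhd4 9 and 14, and Zmat3 5 and 16. These genes reached the minimum of 20 UMIs only through the Sftpc-poor cells, as did Ercc5 and Sesn1, which were not past 2-fold. Ak1, Trp53inp1, Epha2, Ei24, Dcxr and Plk2 reached that minimum in Sftpc-rich cells alone. In all AT2 cells of Cebpa KO over Cebpa FF, 2 of 25 were past 2-fold higher, Plk3 and Aen, against 4.87% of all genes, and 0 lower, with a median of 0.33 against 0.12 for all genes.

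Other lists were set beside the same 18.2% of all genes past 2-fold higher. Of 5 tested CDK inhibitors and pocket proteins, which restrain the same cell cycle step as p21, 1 was past 2-fold higher in Sftpc-poor over Sftpc-rich cells. This was Cdkn2d, with 6 and 18 UMIs, which reached 20 UMIs only through the Sftpc-poor cells. None of 3 tested BCL-2 family genes beyond the members, none of 4 BTG and TOB genes, the family of Btg2, and none of 3 tested genes of the integrated stress response was past 2-fold, and 3 of 8 immediate-early genes were, Atf3, Zfp36 and Fos. Of 6 tested genes of the transitional alveolar state, 5 were past 2-fold higher: Clu, at 1163 and 119 CPM, Krt8, at 727 and 169 CPM, Krt18, Krt19 and Sfn. Sfn, which encodes 14-3-3 sigma, is itself a known p53 target. No gene of the proliferation list reached 20 UMIs.

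In AT1 cells, Cdkn1a, Phlda3 and Ccng1 were higher in Cebpa KO, but from few UMIs, many of them in 1 cell. The levels in 96 Cebpa FF and 28 Cebpa KO cells were 31.8 (16 UMIs) and 203 CPM (23 UMIs) for Cdkn1a, a log2 ratio of 2.67 (1.69 to 3.69). For Phlda3 they were 15.9 and 159 CPM (3.32, 2.05 to 4.73), and for Ccng1 27.9 and 88.3 CPM (1.66, 0.33 to 2.94). Of 6 members tested, these 3 were past 2-fold higher, against 7.92% of 4708 genes, and 0 were past 2-fold lower, against 9.22%. Bax was at 89.6 and 133 CPM (0.56, -0.38 to 1.44), Btg2 at 169 and 212 CPM (0.33, -0.39 to 0.99) and Mdm2 at 61.7 and 61.8 CPM (0.00, -1.43 to 1.21).

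A Cebpa KO cell of 6055 UMIs held 10 of the 23 Cdkn1a, 12 of the 18 Phlda3 and 5 of the 10 Ccng1 UMIs. It had 10 UMIs of Ager, 0 of Hopx, 8 of Epcam, 2 of Sftpc and 0 of Cebpa. Without this cell the log2 ratio was 1.93 (0.75 to 3.08) for Cdkn1a, 1.81 (0.01 to 3.53) for Phlda3 and 0.74 (-1.08 to 2.30) for Ccng1. The AT1 gate of Cebpa KO also differed in genes of other cell types, with the club cell gene Scgb1a1 at 30647 against 350 CPM and Cldn5 at 618 against 133 CPM. Of the Cebpa KO cells in this gate, 1 was rich in secretoglobins and 27 were not, so the Scgb1a1 level may rest largely on 1 cell. Of 7 immediate-early genes, 6 were past 2-fold higher, but Fosb, Ier2, Fos and Egr1 among them reached 20 UMIs only with their Cebpa KO UMIs. The part of all these genes in the ratios above was not tested. Of the other p53 targets in AT1 cells, 1 of 9 tested was past 2-fold higher, Dcxr, and 1 lower, Perp, beside 7.92% and 9.22% of all genes. Dcxr, with 14 and 20 UMIs, was likewise tested only because of its Cebpa KO UMIs. Bbc3 had 16 UMIs over both libraries, Trp53 8, Cdkn2a 3 and Gdf15 0.

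Cdkn1a was higher in Cebpa KO in most of the cell types compared, though mostly by less than 2-fold. Among 11 types with at least 50 cells in each library, AT2 included, its log2 ratio was above 0 in 10, with the interval above 0 in 7, and ranged from -0.22 in smooth muscle to 1.10 (0.53 to 1.67) in lymphatic endothelial cells. The ratio in AT2 cells exceeded that in aerocytes, the capillary cells of gas exchange, by 0.85 (0.62 to 1.07 for counting error) and that in general capillary cells by 0.45 (0.23 to 0.68). Its difference from lymphatic endothelial cells (-0.06, -0.65 to 0.52) and from platelets or megakaryocytes (0.22, -0.78 to 1.22) had intervals that included 0. For Ccng1 the interval was above 0 in 4 of 11 types, AT2, ciliated, general capillary and adventitial fibroblast, and AT2 cells had the highest ratio. The interval of that lead included 0 against ciliated cells, lymphatic endothelial cells, myofibroblasts and platelets or megakaryocytes. For Mdm2 it was above 0 in AT2 and general capillary cells.

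In general capillary cells, with 5115 and 3545 cells the largest type, 2 of 10 members were past 2-fold higher, against 7.64% of 14259 genes, and 0 lower, against 1.51%. These were Cdkn2a, at 1.11 and 3.17 CPM (28 and 60 UMIs, log2 ratio 1.51, 0.84 to 2.21), and Gdf15, at 1.11 and 3.06 CPM (1.46, 0.79 to 2.16). Both were rare. Cdkn1a was at 168 and 252 CPM (0.58, 0.52 to 0.64). In aerocytes 0 of 10 members were past 2-fold, against 6.13% higher and 1.26% lower among 12367 genes, and Phlda3 was lower, at 429 and 340 CPM (-0.34, -0.40 to -0.27). In ciliated cells 0 of 9 members were past 2-fold in summed counts, against 4.36% higher and 2.1% lower, and Btg2 came nearest, at 331 and 606 CPM (0.87, 0.72 to 1.02).

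**Figure D4:**
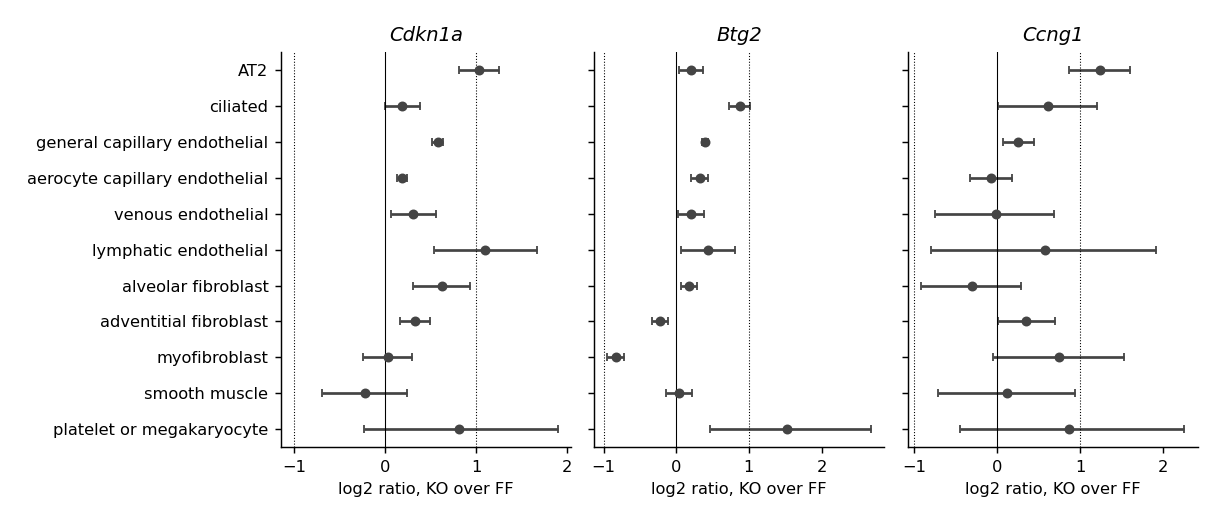
Log2 ratio of Cebpa KO over Cebpa FF for Cdkn1a, Btg2 and Ccng1 in the 11 cell types with at least 50 cells in each library, with 95% counting intervals as bars and dotted lines at 2-fold. Cdkn1a lies above 0 in 10 of 11 types, Btg2 in 9 of 11, and Ccng1 is highest in AT2 cells.

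Members also differed widely between cell types. Among types with at least 50 cells in the library, aerocytes had the highest Cdkn1a in both, at 579 CPM in Cebpa FF and 660 CPM in Cebpa KO. They also had the highest Phlda3, at 429 and 340 CPM, and Bax, at 181 and 173 CPM. Most Cdkn2a UMIs came from the same cells. Of the Cdkn2a UMIs in types with at least 50 cells, aerocytes held 90.6% in Cebpa FF and 82.8% in Cebpa KO. They held 15.8% and 18.6% of all UMIs in these types, and their Cdkn2a level was 56.9 and 61.2 CPM. The 569 and 576 Cdkn2a UMIs lay in 178 and 170 of the 1481 and 1703 cells, with at most 14 and 16 in 1 cell. In smooth muscle of Cebpa FF, 18 Cdkn2a UMIs, at 24.3 CPM the next level, all lay in 1 cell.

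Below aerocytes, Cdkn1a in Cebpa FF was highest in ciliated cells, at 281 CPM, and myofibroblasts, at 244 CPM, whose intervals overlapped. Adventitial fibroblasts followed at 171 CPM and general capillary cells at 168 CPM, also with overlapping intervals, and then venous endothelial cells at 130, smooth muscle at 127, alveolar fibroblasts at 91.8, AT2 at 77.8 and lymphatic endothelial cells at 76.6 CPM, each overlapping its neighbor. Arterial endothelial cells, platelets or megakaryocytes, AT1 cells and pericytes were lowest, from 24.2 to 45.9 CPM. In Cebpa KO, where leukocytes passed the limit of 50 cells, classical monocytes came next to aerocytes, at 591 CPM, and B cells were lowest, at 30.3 CPM. AT2 cells were the ninth of 14 types in Cebpa FF and the thirteenth of 19 in Cebpa KO, and the 581 CPM of the Sftpc-poor cells lay near the level of aerocytes.

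Among types with at least 50 cells in the library, the other members had other leading types. Mdm2 was highest in ciliated cells, at 239 and 223 CPM, 5.50-fold and 4.19-fold the level over the other cells of such types. With cells thinned to 1000 UMIs, ciliated Mdm2 was at 260 CPM in Cebpa FF and 97.6 CPM in Cebpa KO, so the nearness of the 2 summed levels does not hold at matched depth. Btg2 was highest in myofibroblasts of Cebpa FF, at 2030 CPM, and neutrophils of Cebpa KO, at 2143 CPM, with myofibroblasts of Cebpa KO at 1143 CPM. Gdf15 was highest in smooth muscle of Cebpa FF, at 31.1 CPM, and in alveolar macrophages of Cebpa KO, at 76.3 CPM, where 91 of its 367 UMIs lay in 1 cell of 567. Only 3 cells of Cebpa FF met the gate of alveolar macrophages, so that type could not be compared. Ccng1 was highest in alveolar fibroblasts of Cebpa FF, at 41.8 CPM, and in alveolar macrophages of Cebpa KO, at 82.5 CPM. Trp53 was highest in pericytes of Cebpa FF, at 70.4 CPM, and T cells of Cebpa KO, at 102 CPM, and Bbc3 in platelets or megakaryocytes, at 48.0 CPM, and nonclassical monocytes, at 50.1 CPM. Some of these leads were narrow. Trp53 was at 70.2 CPM in smooth muscle of Cebpa FF and 99.5 CPM in B cells of Cebpa KO, and Ccng1 at 40.3 CPM in adventitial fibroblasts of Cebpa FF. After thinning to 1000 UMIs, the leading type was the same in 15 of 20 combinations of member and library. It changed for Trp53 and Bbc3 in both libraries and for Ccng1 in Cebpa FF.

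**Figure D5:**
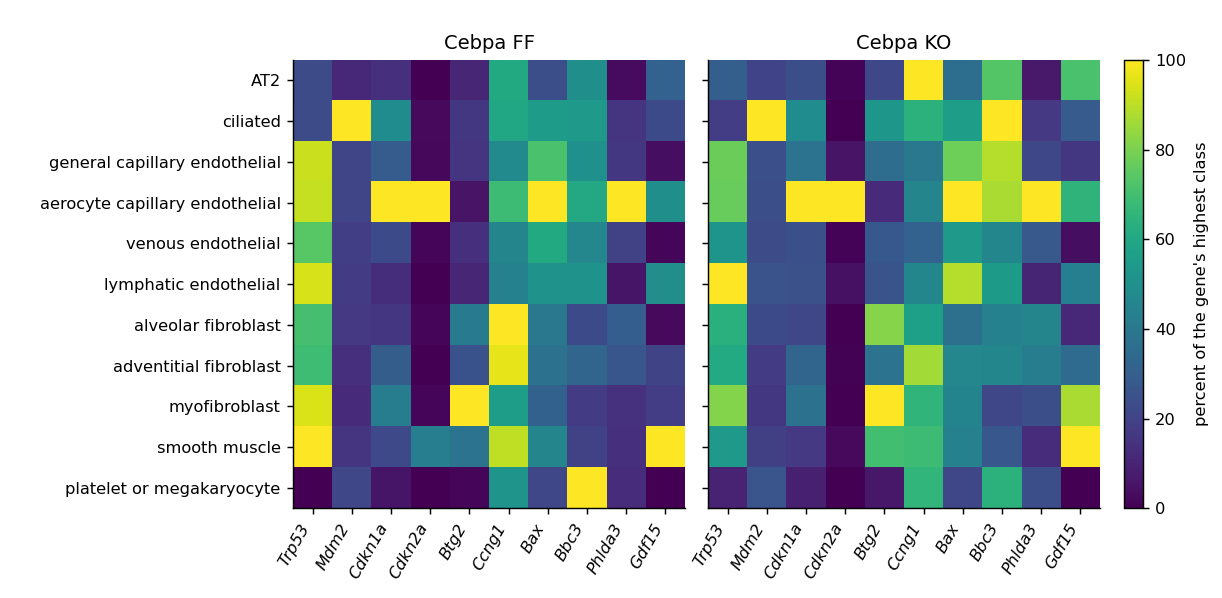
Level of each member in the 11 cell types with at least 50 cells in each library, as percent of the gene's own highest level among these types, in Cebpa FF (left) and Cebpa KO (right). Aerocytes are the brightest row for Cdkn1a, Cdkn2a, Bax and Phlda3, and ciliated cells for Mdm2, in both libraries.

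The genes whose levels followed Cdkn1a most closely over these types were Cpt1a, Papss1 and 4933408B17Rik, with Pearson correlations of 0.874, 0.873 and 0.860 over 22 points, which are 11 types in each of 2 libraries. Those closest to Gdf15 were Inka2, Rtn4rl1 and Pls3, at 0.791, 0.783 and 0.773. The points share libraries and depth, and these were the highest values among 14108 genes, so they serve as a description.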

How the data were processed

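Mouse lung cells were measured by droplet 3′ scRNA-Seq, with 1 library per genotype (Cebpa FF and Cebpa KO). The deposited values are raw UMI counts per gene and barcode, made by the authors with Cell Ranger against mm10. The labels name version 6.1.1 and the file header 5.0.0. Lungs were digested with Liberase DL and DNase I. The labels mention a sort of live cells and the methods whole-lung suspensions, which was not resolved.

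The study's limits on cells, 200 genes or more and no more than 20% mitochondrial UMIs, were applied. A cell was given a type when at least 3 markers and 0.2% of its UMIs fell in 1 list, with a margin of 2 over unrelated lists. No doublet caller was run, and cells that met unrelated gates were left out. The form of the gate and the Sftpc split were set after the data were seen. Counts were summed per type and library, so there was no test between genotypes and no p-value. Levels have exact Poisson 95% intervals, ratios conditional binomial ones, and shares Clopper-Pearson or, where averaged over draws, Wilson ones, all for counting error only. Genes with at least 20 UMIs over both groups were called past 2-fold. Types with at least 50 cells in both libraries were compared, and AT1 as well. The named genes were all 10 members, up to 4 genes with the most UMIs of a list, and the 3 genes most like Cdkn1a and Gdf15. Other list genes named as past 2-fold were chosen after their values were seen. For the calls past 2-fold, and for the medians and shares over members, lists and all genes, counts under 3 were raised to 3 in either group. The ratio of Cebpa against 0 UMIs used the same floor. Members and lists were chosen with earlier results of these data known. Cells were thinned to 1000, 2000 or 10000 UMIs. Scripts were tested on simulated data and used Python 3.11.15, numpy 2.4.6, pandas 2.3.3 and scipy 1.17.1. Promoters are from RefSeq (GRCm38.p6), and gene positions from GENCODE on the same build.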

Additional observations from a re-analysis of the deposited data

Results flagged for a closer look

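Phlda3 was on opposite sides of 0 in 2 cell types, with a log2 ratio of Cebpa KO over Cebpa FF of 0.86 in AT2 cells and -0.34 in aerocytes. In AT2 cells with at least 10000 UMIs it was 0.24, with an interval that includes 0. So was Btg2, at 1.52 in platelets or megakaryocytes and -0.83 in myofibroblasts. With 1 library per genotype, these differences between types were not tested. In the cells that met no gate, which enter none of the comparisons above, Cdkn1a was at 165 CPM in 1155 Cebpa FF and 359 CPM in 2492 Cebpa KO cells (log2 ratio 1.12). Gdf15 was at 6.63 and 16.5 CPM in the same cells (1.32).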

How the results depend on the processing

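Over 39 results and 322 alternatives, 271 values stayed within their limit, 49 moved by more, and 2 reversed. The limit was the counting interval for ratios of levels and a fixed margin for counts and shares. A ratio of levels was called reversed only if the reported one was past 2-fold, so smaller ratios could change sign without being called. Such changes were most frequent in Sftpc-rich cells of Cebpa KO over Cebpa FF, for Btg2 in 6 and for Bax in 4 of 8 alternatives. The count of members past 2-fold in AT2 cells, 2 as reported, was 1 with a stricter cell filter, with at least 3000 or 10000 UMIs per cell, with surfactant, secretoglobin, hemoglobin and mitochondrial genes out of the total, with ratios centred on all genes, and with a stricter gate. It was 4 in 1 draw of 1000 UMIs per cell and 0 without the Sftpc-poor cells. Without those cells the log2 ratio was 0.37 for Cdkn1a and 0.28 for Ccng1. In 1 draw of 1000 UMIs it was 1.74 for Cdkn1a, 1.15 for Mdm2 and 0.25 for Ccng1. Averaged over all draws it was 1.48 for Cdkn1a, 0.24 for Mdm2 and 1.30 for Ccng1 (59.2 CPM in Cebpa KO and 24.1 CPM in Cebpa FF). The averages were added after 2 draws were seen to differ. Cdkn1a in Sftpc-rich cells of Cebpa KO over Cebpa FF was at 0.37 summed and at 0.80 as the mean over thinned cells, which changes depth and the weight of each cell at once. Phlda3 was the member that moved most, from -0.50 to 2.85 in that comparison. Subtracting free RNA took Sftpc-poor over Sftpc-rich Cdkn1a from 2.53 to 2.93. In AT1 cells, 0 members and 0 listed p53 targets were past 2-fold at a minimum of 50 UMIs, where no such target was tested, and Cdkn1a was at 4.202 in 1 draw. The log2 ratio of the shares of AT2 cells with a Cdkn1a UMI, 1.65 in 1 draw of 1000, was 1.14 at 2000, 0.53 at 10000 (0.53 averaged) and, reversed, -0.26 without thinning, where Ccng1 reversed as well, to -0.95. Except where construction shows it, the cause was not tested.

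The main limits are 1 library per genotype, 23 Sftpc-poor and 28 AT1 cells, and the lower depth of Cebpa KO. Members with few UMIs (Cdkn2a in AT2 cells, Gdf15, Phlda3) allow wide ratios. Fewer expressing cells and less RNA per cell were told apart only where thinned shares or single deep cells are given. No paired analysis was possible because each genotype was 1 library.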

Other observations

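In general capillary cells, where Cdkn1a, Cdkn2a and Gdf15 had higher levels in Cebpa KO, genes of dividing cells were higher as well. Of 6 proliferation genes, 5 were past 2-fold higher and 0 lower, against 7.64% and 1.51% of all genes in these cells. Mki67 was at 3.86 CPM in Cebpa FF and 8.98 CPM in Cebpa KO (log2 ratio 1.22, 0.85 to 1.59), and the mitotic kinase gene Cdk1 at 0.915 and 3.86 CPM (2.08, 1.38 to 2.82). Top2a, the sixth, was at 5.21 and 10.1 CPM (0.96, 0.63 to 1.29). Of the p53 targets beyond the 10 members, 2 of 30 were past 2-fold higher in these cells, Sesn2 and Tnfrsf10b, a share near that of all genes, and their median log2 ratio was 0.12.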
